A study of Drosophila melanogaster with 65 samples.

Results

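The samples described here are ovaries of Drosophila melanogaster from 4 fly lines that the labels call FITS, FPSE1, FPSE2A and FPSE2B. Long RNA was sequenced from 1 mutant and 1 wild-type library of each line, which gives 4 mutant libraries against 4 wild-type libraries, 8 of the 65 samples of the series. The series text says that its mutant strains carry newly made deletions near the start of flamenco (flam), and the series title names the question of how the transcription factor Traffic jam (TJ) acts on that locus. The sources used here do not give which bases each mutant lacks, how FPSE2A and FPSE2B are related, whether wild-type flies were siblings of the mutants, or the age and genetic background of any flies. RNA was total RNA of whole ovaries, depleted of ribosomal RNA, so in all results below fewer cells of a type and less RNA per cell cannot be told apart. No label says that libraries came from separate animals or days, and p-values therefore measure only the spread between these libraries. Each line had 1 library per genotype, so the ratio within a single line has no replicate check and no test.

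The flam locus is a piRNA cluster near the base of the X chromosome. Follicle cells, the somatic cells around the germline of an egg chamber, transcribe it as a long precursor that is cut into piRNAs, small RNAs that guide the Argonaute protein Piwi to transposons. Retrotransposons of the gypsy family are its best known targets, because they can move from follicle cells into the germline, and older flam mutants are known for small ovaries and female sterility. TJ is a large Maf factor of the somatic gonad and is needed for piwi expression in follicle cells.

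Unique sense counts in genes ranged from 33183727 to 66915056 in mutant libraries and from 39846068 to 81892058 in wild-type libraries. Levels are given as CPM, the counts of a gene for every 1000000 counts of a library after TMM scaling of its total, and CPM are not scaled to gene length. Where 4 values are given for a genotype, they stand in the order FITS, FPSE1, FPSE2A, FPSE2B. All 6 germline markers and all 8 follicle cell markers had reads in every library. The 8 follicle cell markers summed to 15570, 4500, 10620 and 7519 CPM in the mutants, against 16950, 10530, 8688 and 5826 CPM in the wild types, so the FPSE1 mutant had the smallest sum of all 8 libraries. The 6 testis markers summed to at most 4.32 CPM in mutants and 3.46 CPM in wild types.

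The flam gene, annotated at X:21631890-21790731 on the plus strand, had 73.4, 12.2, 89.8 and 101 CPM of unique sense reads in the mutants, against 146, 131, 75.1 and 133 CPM in the wild types. The FPSE1 mutant stood far below every other library with 655 reads, against 5599 reads in its wild type, a level of 9.33% of wild type. The FITS mutant was at 50.4% and the FPSE2B mutant at 75.8% of their wild types, while the FPSE2A mutant was at 119.6% of its wild type, so mutants and wild types overlapped. Across the 4 lines the log2 fold change was −1.05 (SE 0.57), which did not pass the threshold of 0.05 (edgeR quasi-likelihood adjusted p = 0.589). This value rests on FPSE1, as it was −0.36 without that line (adjusted p = 0.876), −0.07 in FPSE2A and FPSE2B alone and −2.09 in FITS and FPSE1 alone.

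Reads that fit several genome positions are left out of the unique counts, and at a cluster made of transposon fragments they outnumber the unique reads. In the FPSE1 mutant these reads were abundant, with 13940 reads over flam, scaled by the unique reads as for CPM, against 868 in the FPSE1 wild type, a ratio of 16.1. The FITS, FPSE2A and FPSE2B mutants had 567, 1436 and 1083, against 837, 1043 and 1254 in their wild types, ratios of 0.678, 1.38 and 0.863. With these reads included, the fitted log2 fold change of flam was 0.73 (edgeR adjusted p = 0.840), so the direction depends on how such reads are counted. Reads antisense to flam stood at 4.31, 5.47, 14.4 and 15.0 CPM in the mutants, against 6.73, 4.68, 12.4 and 12.6 CPM in the wild types, with no line differing by as much as 2-fold.

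**Figure D1:**
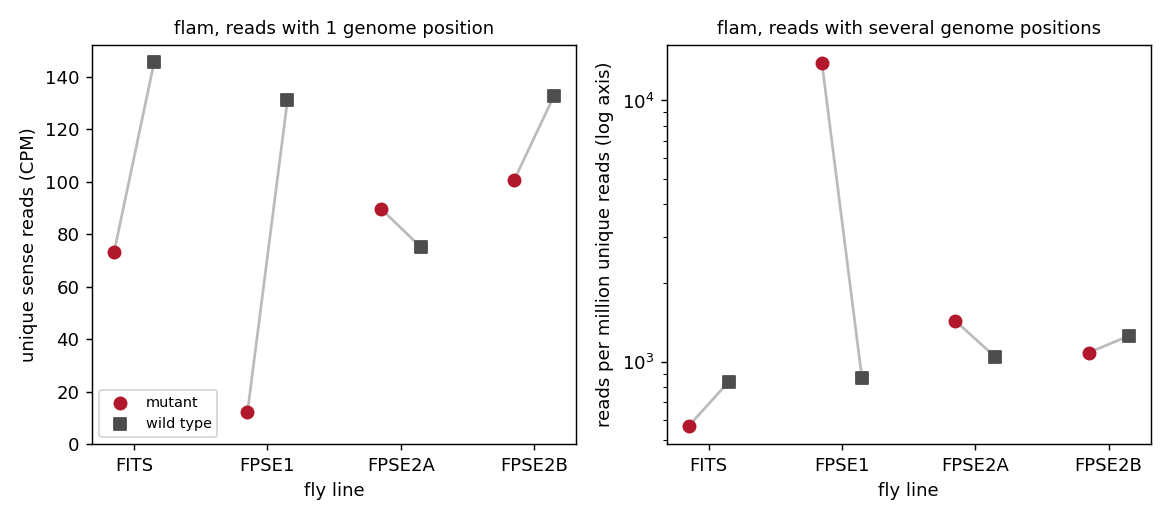
Unique sense reads of flam in CPM (left, linear axis from 0) and reads of flam with several genome positions, scaled by the unique reads as for CPM (right, log axis), for the mutant (red circles) and wild type (grey squares) of each line. The FPSE1 mutant is the lowest library on the left with 12.2 CPM and the highest on the right with 13940.

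Other genes, named after their values were seen, also had many more reads with several positions in the FPSE1 mutant. CG11883 had 15330 such reads, on the same scale, in the FPSE1 mutant, against 150 in its wild type, and CG34354 had 10090, against 81.1. The boule gene (bol), whose annotated bounds differ between libraries and whose values are uncertain, had 1283 in the FPSE1 mutant, against 0.795 in its wild type. Its unique reads went the other way, with 24.5 CPM in the FPSE1 mutant, against 86.0 CPM in the FPSE1 wild type. Long genes such as sls, CadN2, rut and Tg had nearly the same values as each other in each library. For sls they were 4736, 20310, 18870 and 27810 in the mutants, against 7878, 6281, 13990 and 44460 in the wild types. Such reads cannot be assigned to a gene, and which repeats they come from was not analysed here.

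The neighbours of flam differed less between mutants and wild types than flam did in FPSE1. DIP1, a double-stranded RNA binding protein gene whose own start faces that of flam on the other strand (X:21624795-21630148), had 94.6, 53.7, 46.2 and 53.1 CPM in the mutants, against 107, 92.6, 60.9 and 49.4 CPM in the wild types. Its log2 fold change was −0.31 (SE 0.16, edgeR adjusted p = 0.569), and it was higher only in the FPSE2B mutant. GCS2alpha, a glucosidase subunit gene, had 316, 324, 221 and 195 CPM in the mutants, against 375, 315, 293 and 218 CPM in the wild types, which overlap. The other genes within 200000 bp that passed the filter on low counts were CR45082, Cyp6t1, DIP-beta and Ir20a, with log2 fold changes of −0.21, −0.26, 0.10 and −0.64 and edgeR adjusted p from 0.706 to 0.923. Reads of Cyp6t1 and CR45082, which overlap on 1 strand, and of DIP-beta, which overlaps CG10918, are uncertain, and Ir20a was below 0.5 CPM in every library. The authors' deposited list of 1987 TJ peaks from OSS cells, a line of ovarian somatic cells, has a 500 bp peak at X:21632126-21632625, 236 to 735 bp past the annotated start of flam. A further peak lay at X:21599277-21599776, and whether either lies in a deleted stretch cannot be told from the labels.

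The genes of TJ and Piwi were lower in most mutants, without passing the test. The tj gene had 334, 118, 96.3 and 89.7 CPM in the mutants, against 458, 345, 139.5 and 88.4 CPM in the wild types, a log2 fold change of −0.62 (SE 0.25, edgeR adjusted p = 0.516). The ratio was largest in FPSE1 and near 1 in FPSE2B, and without FPSE1 the log2 fold change was −0.31. The piwi gene had 380.1, 216, 164 and 153 CPM in the mutants, against 512.01, 419, 193 and 167 CPM in the wild types (−0.43, SE 0.16, edgeR adjusted p = 0.509). It was lower in each of the 4 mutants than in its own wild type, although the FITS mutant lay above the FPSE2A and FPSE2B wild types. The summed follicle cell markers of the FPSE1 mutant were also low, and their part in these values was not tested.

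Over the whole table, no gene passed the test in the 4 lines together. Of 13258 genes tested, 0 (0%) had an edgeR adjusted p under 0.05, and the smallest was 0.506. At an unadjusted p under 0.05 there were 1278 genes (9.64%), of which 269 (2.03%) were higher and 1009 (7.61%) lower in the mutants. DESeq2 called 100 genes, 66 higher and 34 lower, and had 1349 genes at an unadjusted p under 0.05. Of genes at an unadjusted p under 0.05, 622 of 955 were lower when only the scaling was changed, to DESeq2 size factors in edgeR. In DESeq2, which also changes the test, 810 of 1349 were lower, and with the stricter filter of a mean of at least 5 CPM, which also changes the genes tested, 255 of 474 were. Genes with a mean of at least 10 CPM had a median log2 fold change of −0.12, against −0.03 over all genes tested, and 983 of these 7098 genes (13.8%) were lower and 58 (0.817%) higher at an unadjusted p under 0.05. Of all genes tested 7126 (53.7%) had a negative log2 fold change, and of the 7098 well expressed ones 5025 (70.8%) did. Of the well expressed genes 1803 (25.4%) were lower and 143 (2.01%) higher in all 4 mutants than in the paired wild types. With genes of a mean under 5 CPM left out before scaling, log2 fold changes shifted upwards, to a median of −0.0021 in genes with at least 10 CPM and to −0.93 for flam, −0.51 for tj and −0.32 for piwi. The counts of negative signs in the lists below are to be read against the 70.8% of well expressed genes, and those of lower genes at an unadjusted p against the 13.8%. The biological coefficient of variation was 0.362. A count of 0 here does not show that genes did not differ.

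Genes were next ranked by p among those with the same sign in all 4 lines and a mean of at least 1 CPM, and the first 10 in each direction are described, none of which passed the test. All 20 had an edgeR adjusted p of 0.506. DESeq2 called all 20, with adjusted p from 8.72e-10 to 0.0299. The 20 were picked by the edgeR p on the same libraries, so these calls are no separate support. Send1, a serine protease gene of the spermatheca, the sperm storage organ, had 21.96, 40.7, 39.3 and 15.99 CPM in the mutants, against 0.0876, 0.0468, 8.81 and 0.152 CPM in the wild types. The other genes on the higher side were mostly of little known function. CG12708 had 10.8, 8.42, 14.4 and 22.5 CPM in the mutants, against 3.68, 3.56, 2.31 and 8.03 CPM in the wild types, and every mutant lay above every wild type. The same separation held for l(1)G0193, with 266, 226, 202 and 227 CPM in the mutants, against 192, 159.5, 109.6 and 146 CPM in the wild types. CG1503 lies at X:21104694-21106369, on the chromosome of flam, and had 4.06, 28.6, 3.21 and 6.07 CPM in the mutants, against 1.28, 5.05, 0.943 and 2.07 CPM in the wild types.

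The most evenly shifted of the higher genes was yin, an oligopeptide transporter gene. It had 328, 337, 325 and 192 CPM in the mutants, against 211, 208, 206 and 135 CPM in the wild types, with log2 ratios of 0.63, 0.69, 0.66 and 0.50. Both libraries of FPSE2B were the lowest of their genotype. The pepsinogen-like gene pcl had 3.26, 4.70, 6.64 and 2.73 CPM in the mutants, against 0.117, 0.328, 1.39 and 1.11 CPM in the wild types, and it overlaps CG32816 on the same strand, so its reads are uncertain. CG14292, CG17109, CG32640 and CG6901 had log2 fold changes of 0.91, 3.01, 1.05 and 3.02, and CG6901 was below 0.1 CPM in both FITS libraries.

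On the lower side stood HIP-R, a gene for an Hsc70-interacting protein, with 20.5, 18.1, 10.7 and 11.3 CPM in the mutants, against 36.8, 32.1, 26.8 and 32.5 CPM in the wild types. Its groups did not overlap, and the log2 ratios of −1.25 in FPSE2A and −1.44 in FPSE2B were larger than those of −0.81 in FITS and −0.79 in FPSE1. The BMP inhibitor gene sog had 65.8, 105, 54.8 and 147 CPM in the mutants, against 95.0, 162, 138 and 294 CPM in the wild types, with overlapping groups. RpS14b, 1 of a pair of near-identical ribosomal protein genes and uncertain for that reason, had 78.2, 78.7, 53.4 and 57.5 CPM in the mutants, against 119, 155, 104 and 73.0 CPM in the wild types. The circadian repressor gene cwo, the Hippo pathway factor gene sd, the Polycomb group gene Asx and headcase (hdc) had log2 fold changes of −0.58, −0.64, −0.54 and −0.58. CG8611, CG43658 and the ionotropic receptor gene Ir76a had −0.75, −0.68 and −0.77. The plot of these genes by line shows that the 4 lines lay close together for yin, hdc and cwo and far apart for Send1.

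**Figure D2:**
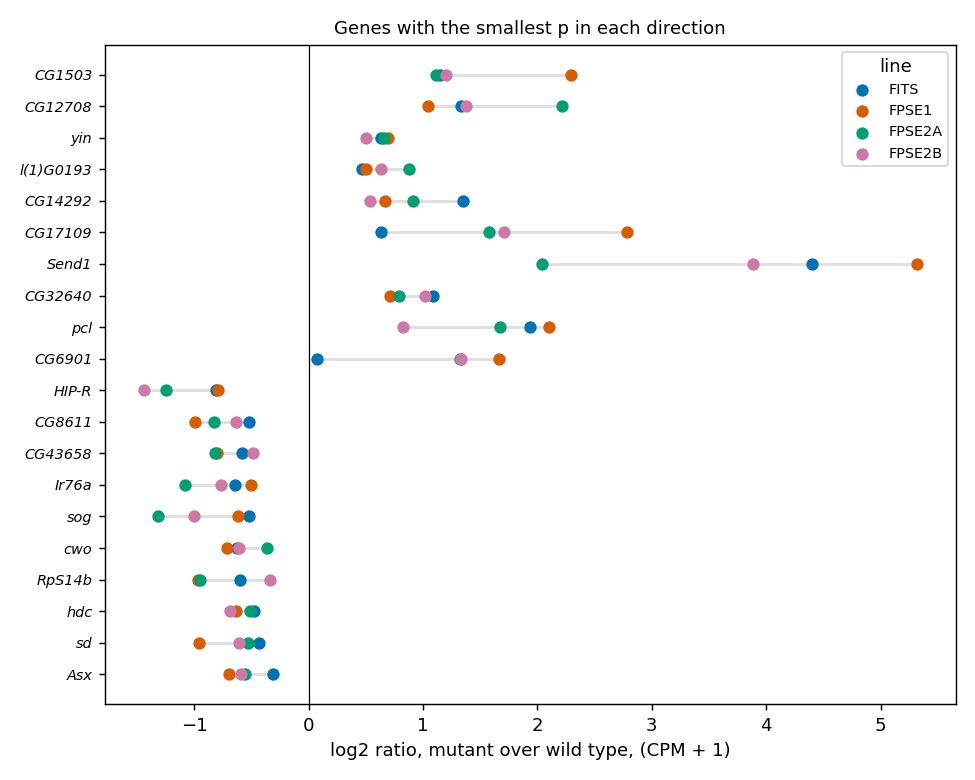
Log2 ratio of mutant over wild-type CPM (1 CPM added to each) in each of the 4 lines for the 10 genes with the smallest p in each direction (higher genes above, lower genes below), with 1 point per line. Ratios of Send1 run from 2.04 in FPSE2A to 5.32 in FPSE1, and those of HIP-R from −1.44 in FPSE2B to −0.79 in FPSE1.

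Of those 20 genes, 6 of the 10 higher and 6 of the 10 lower genes lie on the X chromosome, which also holds flam, against 2085 of 13258 genes tested (15.7%). Over all genes tested, all 4 mutants lay above all 4 wild types in 36 (0.272%) and below them in 33 (0.249%), and 23 of these 69 genes (33.3%) are on the X. Of the 100 genes called by DESeq2, 29 (29%) are on the X. The X as a whole had a median log2 fold change of −0.05, against −0.03 over all genes tested. At an unadjusted p under 0.05 were 231 of its 2085 genes (11.1%), near the 9.64% of all genes tested. Within the lines, 6 genes were at least 2-fold higher in all 4 mutants (0.0453%), which were Send1, CG31681, CG17239, CG42780, CG12708 and CG1503, and 0 were at least 2-fold lower (0%).

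Genes of the spermatheca and the lower reproductive tract stood higher in the mutants of all 4 lines. Of the 16 listed genes found in the tables, 15 passed the filter on low counts. A positive log2 fold change was found in 14 of the 15, against 6132 of 13258 genes tested. At an unadjusted p under 0.05, 8 were higher, where 2.03% of all genes tested were. Send1, CG31681 and CG17239 had 0 or few reads in every wild type but FPSE2A and so passed the filter mainly through mutant libraries. The sign of such genes is partly fixed by the filter, so these counts are no test of the list. No member passed the test (smallest edgeR adjusted p = 0.506), 10 were higher in all 4 mutants, where 5.85% of all genes tested were, and the median log2 fold change was 2.48. DESeq2 called 7 of the 15, all higher, against 66 called higher of 13258 genes tested. The summed level of the list was 108, 136, 116 and 60.7 CPM in the mutants, against 10.9, 14.9, 40.8 and 24.3 CPM in the wild types. The FPSE2A wild type was thus the highest and the FITS wild type the lowest of the wild types.

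Among the members with the highest levels, the serine protease gene CG31681 had 23.1, 32.8, 30.1 and 12.8 CPM in the mutants, against 0, 0, 10.7 and 0.480 CPM in the wild types. CG17239, a protease gene next to Send1 on arm 2L, had 20.6, 15.3, 12.9 and 3.88 CPM in the mutants, against 0.0876, 0, 4.82 and 0.202 CPM in the wild types. The fitted log2 fold changes of Send1, CG31681 and CG17239 were 6.42 (SE 1.30), 6.04 (SE 1.79) and 5.47 (SE 1.52), and since some wild types had 0 or few reads these values depend on the prior count and are no bounds. Obp99a, an odorant binding protein gene also used outside this organ, had 6.46, 11.9, 2.97 and 11.5 CPM in the mutants, against 7.25, 6.41, 3.60 and 9.60 CPM in the wild types, with overlapping groups. CG18628, a small gene of unknown role named after its values were seen, had 25.1, 16.03, 4.11 and 2.03 CPM in the mutants, against 1.21, 2.69, 0.730 and 1.57 CPM in the wild types.

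Drosomycin (Drs), an antifungal peptide gene that is also known to be active in the spermatheca without infection, had 67.8, 47.4, 36.7 and 17.2 CPM in the mutants, against 0.0438, 0.328, 7.87 and 8.66 CPM in the wild types. Every mutant lay above every wild type, with a log2 fold change of 4.53 (SE 1.71, edgeR adjusted p = 0.509). Of the 21 tested genes for antimicrobial peptides and peptidoglycan sensors, 2 (Drs and Def) were higher at an unadjusted p under 0.05. Of all genes tested, 2.03% were. A positive log2 fold change was found in 13 of the 21, against 6132 of 13258 genes tested. Defensin (Def) had 2.997, 2.59, 0.0706 and 0.937 CPM in the mutants, against 0.0438, 1.59, 0 and 0.354 CPM in the wild types, with overlapping groups. PGRP-SC2, a peptidoglycan amidase gene, had 0.0662, 45.9, 116 and 10.7 CPM in the mutants, against 8.43, 2.60, 4.91 and 25.6 CPM in the wild types, so it was higher in FPSE1 and FPSE2A mutants and lower in FITS and FPSE2B mutants. PGRP-LB, another amidase gene, had 20.7, 21.1, 19.3 and 21.7 CPM in the mutants, against 16.2, 32.5, 11.1 and 13.9 CPM in the wild types. The 3 spermatheca markers in the tables summed to 42.9, 56.8, 53.05 and 19.97 CPM in the mutants, against 0.219, 0.0468, 14.3 and 0.429 CPM in the wild types, and the part of spermatheca tissue in the level of Drs or of the list was not tested.

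Digestive enzyme genes differed more between lines than any other group, and in opposite directions. The summed level of the 36 tested genes was 12.7, 6509, 4323 and 1744 CPM in the mutants, against 2602, 1295, 580.1 and 676 CPM in the wild types. The FITS mutant had nearly none of this RNA and the FITS wild type a high level, whereas the FPSE1, FPSE2A and FPSE2B mutants all lay above their wild types. Median log2 ratios were −2.56, 2.32, 2.46 and 0.80 in the 4 lines. In the FITS mutant 21 genes were at least 2-fold lower, where 1.55% of all genes tested were. At least 2-fold higher were 30, 33 and 13 in the FPSE1, FPSE2A and FPSE2B mutants. Of all genes tested, 3.95%, 2.89% and 1.24% were at least 2-fold higher in these mutants. In the FPSE2B mutant 8 were at least 2-fold lower, where 0.475% of all genes tested were. Across the 4 lines the median log2 fold change was 1.38 with 0 of 36 members passing the test (smallest edgeR adjusted p = 0.573) and 0 at an unadjusted p under 0.05.

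The trypsin gene alphaTry had 1.32, 1380, 489 and 214 CPM in the mutants, against 287, 392, 91.0 and 75.4 CPM in the wild types. Jon65Aiv, a Jonah family protease gene, had 1.61, 1169, 843 and 236 CPM in the mutants, against 485, 217, 78.4 and 84.5 CPM in the wild types. The related Jon65Aiii had 0.745, 812, 382 and 148 CPM in the mutants, against 320, 227, 39.5 and 32.2 CPM in the wild types, and betaTry 1.19, 1086, 292 and 248 CPM in the mutants, against 454, 153, 80.1 and 59.5 CPM in the wild types. These genes have near copies, so their values are uncertain. All 4 were lowest in the FITS mutant and highest in the FPSE1 mutant among the mutants, whereas the order of the wild types differed between genes. Leaving out FITS, 7 of 13113 genes passed the test, all higher. LysE, LysB and betaTry are in the list of digestive enzyme genes used here. The others, mwh, CG13323, CG6295 and Jon74E, are not in that list, which does not hold every digestive enzyme gene. LysB and LysE lie inside mwh on its strand, so the reads of these 3 are uncertain. In FPSE2A and FPSE2B alone, 33 of 12885 genes passed, 32 higher and 1 lower, and 11 of the higher ones were in this list. The 5 gut marker genes summed to 2.65, 1494, 885 and 554 CPM in the mutants, against 816, 176, 143 and 178 CPM in the wild types, and the part of gut tissue in any library was not tested.

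**Figure D3:**
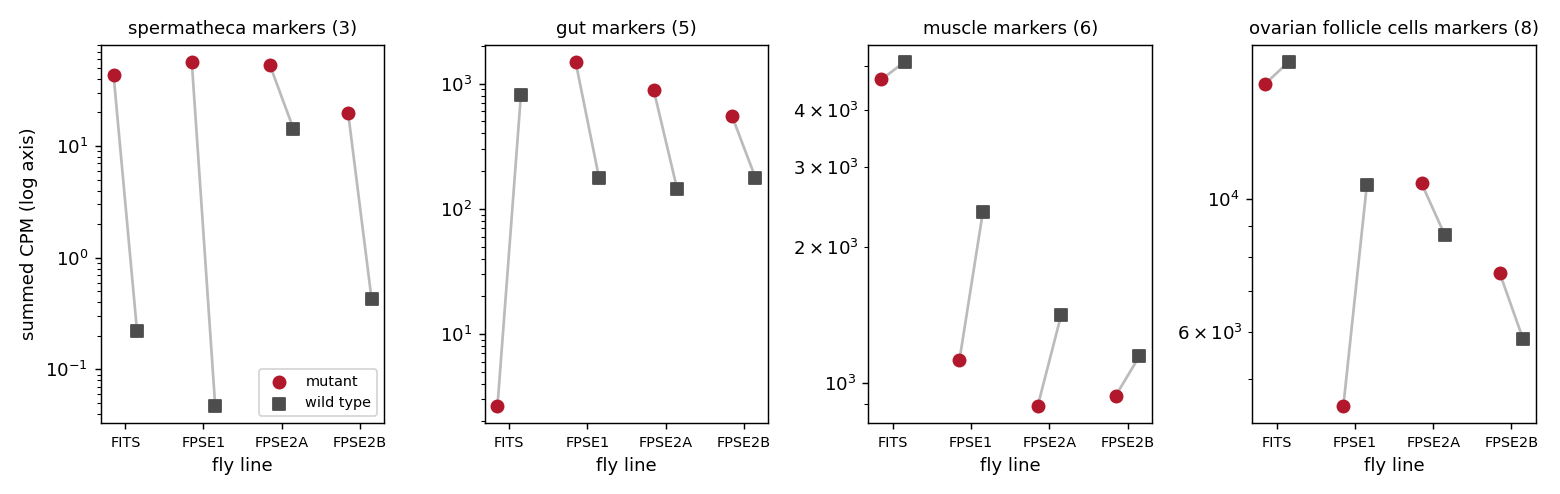
Summed CPM (log axes) of marker genes for spermatheca (3 genes), gut (5), muscle (6) and ovarian follicle cells (8) in the mutant (red circles, left of each pair) and wild type (grey squares) of each line. Spermatheca markers lie higher in each mutant, whereas gut markers lie at 2.65 CPM in the FITS mutant, against 816 CPM in the FITS wild type, and the other way round in the other lines.

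The direction of the difference between mutant and wild type in eggshell genes varied by line. Follicle cells make the vitelline membrane proteins first and the chorion proteins in the last stages of egg chamber growth, with help from gene amplification at the chorion loci. Among 13 chorion genes, 11 had a positive and 2 a negative log2 fold change across the 4 lines, but 0 passed the test (smallest edgeR adjusted p = 0.683) and the median was 0.30. By line the median log2 ratios were 1.91, −1.21, 1.14 and −0.19. In the FITS mutant 10 and in the FPSE2A mutant 7 chorion genes were at least 2-fold higher. Of all genes tested, 2.44% and 2.89% were at least 2-fold higher in these mutants. In the FPSE1 mutant 7 were at least 2-fold lower, where 3.08% of all genes tested were, and in the FPSE2B mutant 0 passed 2-fold. The overall median was −0.31 without FITS and −0.20 without FPSE2A, so its sign turns on single lines.

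Cp36 and Cp38, chorion genes of the X cluster, had 754, 802, 2739 and 1584 CPM and 1392, 1616, 5974 and 3364 CPM in the mutants, against 92.5, 1266, 1507 and 1805 CPM and 109, 2624, 2709 and 3029 CPM in the wild types. The FITS wild type was the lowest library for both, far below the next. Cp18, of the third chromosome cluster, had 3252, 111, 3093 and 1648 CPM in the mutants, against 1382, 989, 1194 and 2157 CPM in the wild types. Cp15 from the same cluster had 1505, 382, 3270 and 1800 CPM in the mutants, against 1932, 886, 495 and 1978 CPM in the wild types, so there the FITS wild type was above the FITS mutant. The FPSE1 mutant was the lowest library for Cp15 and Cp18. The mutants together and the wild types together overlapped for all 4 genes.

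Of 18 vitelline membrane genes, 0 passed the test (smallest edgeR adjusted p = 0.591), the median log2 fold change was −0.25 and the medians by line were 0.03, −1.20, 0.24 and 0.08. In the FPSE1 mutant 11 of 18 were at least 2-fold lower, where 3.08% of all genes tested were. At least 2-fold higher were 3 in the FITS, 2 in the FPSE1 and 4 in the FPSE2A mutant. Of all genes tested, 2.44%, 3.95% and 2.89% were at least 2-fold higher in these mutants. Vm26Aa had 2208, 622, 1561 and 859.6 CPM in the mutants, against 2234, 1579, 1048 and 506 CPM in the wild types, and Vm26Ab 778, 162, 486 and 306 CPM in the mutants, against 1014, 618, 583 and 222 CPM in the wild types. The eggshell precursor gene dec-1 had 2378, 392, 859 and 458 CPM in the mutants, against 2281, 1258, 705 and 381 CPM in the wild types, and Vm34Ca 1098, 399, 1504 and 876 CPM in the mutants, against 1424, 1047, 703 and 614 CPM in the wild types. In all 4 the FPSE1 mutant stood well below its wild type. The genes yellow-g and yellow-g2, needed for a rigid eggshell and named after their values were seen, were at 243 and 252 CPM in the FITS mutant, against 3.27 and 5.97 CPM in the FITS wild type, the lowest of the 8 libraries.

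**Figure D4:**
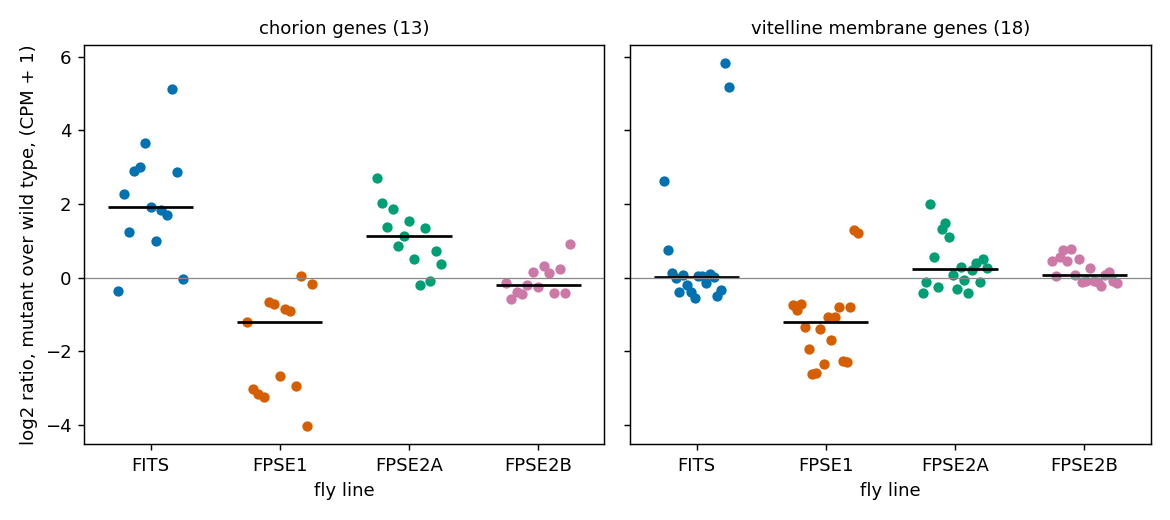
Log2 ratio of mutant over wild-type CPM (1 CPM added to each) of 13 chorion genes (left) and 18 vitelline membrane genes (right) in each line, with 1 point per gene and a black bar at the median. Chorion medians lie at 1.91 in FITS and −1.21 in FPSE1, and vitelline medians at −1.20 in FPSE1 and within 0.25 of 0 in the other 3 lines.

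The yolk protein genes Yp1, Yp2 and Yp3, expressed in follicle cells and fat body, and the yolk receptor gene yl of the oocyte gave 1 positive and 3 negative log2 fold changes, from −0.42 to 0.26, with edgeR adjusted p of at least 0.723. Yp2 had 6547, 1351, 2926 and 2153 CPM in the mutants, against 8385, 4288, 3489 and 1477 CPM in the wild types, so the FPSE2B mutant alone was above its wild type. The receptor gene yl had 2857, 2698, 1657 and 1500 CPM in the mutants, against 2412, 2697, 2218 and 1413 CPM in the wild types. Of 13 genes of late follicle cells and ovulation, 12 had a negative log2 fold change and 3 were lower at an unadjusted p under 0.05, with a median of −0.31. Of well expressed genes 70.8% were negative and 13.8% lower at that p. The octopamine receptor gene Oamb, which acts in ovulation and was named after its values were seen, had 37.99, 45.4, 36.2 and 57.3 CPM in the mutants, against 50.2, 81.5, 44.5 and 69.8 CPM in the wild types. Pxt, a cyclooxygenase-like gene of follicle maturation, had 477, 667, 461 and 418 CPM in the mutants, against 476, 460.2, 742 and 495 CPM in the wild types.

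Genes of follicle cell identity were lower in FPSE1 above all. Of 24 genes tested, 19 had a negative log2 fold change, near the share of well expressed genes (70.8%), 8 were lower at an unadjusted p under 0.05 (13.8% of well expressed genes) and 0 passed the test, with a median of −0.41. Medians by line were −0.27, −0.88, −0.21 and 0.03, and 11 genes were at least 2-fold lower in the FPSE1 mutant, where 3.08% of all genes tested were. Without FPSE1 the median was −0.17, against −0.11 in the same fit for genes with at least 10 CPM. The zinc finger factor gene peb had 275, 162, 125 and 182 CPM in the mutants, against 329, 327, 171 and 284 CPM in the wild types. The repressor gene ttk had 343, 221, 186 and 178 CPM in the mutants, against 436, 376, 199.7 and 239 CPM in the wild types, and the adhesion gene Fas3 231, 172, 137 and 229 CPM in the mutants, against 239, 249.8, 155 and 298 CPM in the wild types. All 3 were lower in each mutant than in its own wild type, and in none were the groups apart.

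Signalling pathways of the follicle epithelium were examined next. Of 17 tested genes of the Notch and Egfr pathways, which pattern the follicle cells, 14 had a negative log2 fold change and 3 were lower at an unadjusted p under 0.05, which is near the 13.8% of well expressed genes, with a median of −0.41. The receptor gene N had 329, 249, 141 and 143 CPM in the mutants, against 434, 389, 181 and 180.4 CPM in the wild types, and its ligand gene Dl 145, 110.5, 113 and 112 CPM in the mutants, against 203, 187, 116 and 181 CPM in the wild types. Egfr had 229, 90.5, 43.5 and 57.5 CPM in the mutants, against 284, 234, 66.2 and 54.1 CPM in the wild types, and sty, an inhibitor of the pathway, 159, 76.4, 83.6 and 113 CPM in the mutants, against 199.8, 180.2, 76.9 and 129 CPM in the wild types. The FPSE1 mutant was at 38.6% of its wild type for Egfr. Of 19 Hedgehog and Wnt genes, 9 had a positive and 10 a negative log2 fold change, with a median of −0.001 and an FPSE1 median of −0.07, against −0.76 for the Notch and Egfr list. The Hedgehog factor gene ci had 166, 68.3, 61.3 and 88.7 CPM in the mutants, against 209, 180.1, 70.2 and 112 CPM in the wild types, while arm, the beta-catenin gene, had 738, 739, 618 and 678 CPM in the mutants, against 708, 634, 649 and 788 CPM in the wild types.

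Ecdysone is the steroid hormone that the ovary makes and reads during egg chamber growth. Of 10 tested synthesis genes, 8 had a negative log2 fold change and 1 was lower at an unadjusted p under 0.05. The oxygenase genes nvd and spo had 34.4, 20.5, 28.0 and 32.3 CPM and 25.8, 6.85, 15.7 and 13.2 CPM in the mutants, against 49.3, 41.1, 15.9 and 32.1 CPM and 49.0, 28.8, 13.2 and 11.2 CPM in the wild types, so both were at least 2-fold lower in the FPSE1 mutant and higher in the FPSE2A mutant. Of 14 response genes, 11 had a negative log2 fold change and 5 were lower at an unadjusted p under 0.05, with a median of −0.15. Of well expressed genes 70.8% were negative and 13.8% lower at that p, with a median of −0.12. The nuclear receptor gene Eip75B had 381, 245, 193 and 264 CPM in the mutants, against 479, 587, 244 and 298 CPM in the wild types, and the coactivator gene tai 226, 175, 140 and 179.5 CPM in the mutants, against 309.7, 343, 165 and 232 CPM in the wild types. Eip93F and ftz-f1, which encode transcription factors of the hormone cascade, had log2 fold changes of −0.16 and −0.31. No gene of either list passed the test (smallest edgeR adjusted p = 0.506).

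Genes of cell adhesion, polarity and the spectrin skeleton had small fold changes, nearly all negative. Of 20 genes, 19 had a negative log2 fold change, 13 were lower in all 4 mutants, where 25.4% of genes with at least 10 CPM were, and 9 were lower at an unadjusted p under 0.05, where 13.8% of those were. The median was −0.35, or −0.23 with the stricter filter, and no gene passed the test. The spectrin genes alpha-Spec, beta-Spec and kst had log2 fold changes of −0.34, −0.25 and −0.56. For kst, a spectrin of the apical membrane, the levels were 645, 387, 178 and 176 CPM in the mutants, against 826, 727, 306 and 200.3 CPM in the wild types. The adhesion gene Nrg had 411, 527, 279 and 474 CPM in the mutants, against 462, 535, 478 and 789 CPM in the wild types.

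Basement membrane and muscle genes stood lower in the FPSE1 and FPSE2A mutants. Basement membrane is made by follicle cells and hemocytes, and muscle forms the sheath around the ovary. Of 13 basement membrane and matrix genes, 10 had a negative log2 fold change and 3 were lower at an unadjusted p under 0.05. Of well expressed genes 70.8% and 13.8% were. The list had a median of −0.61 and medians by line of −0.18, −1.41, −0.98 and 0.20. In the FPSE1 and FPSE2A mutants 8 and 5 were at least 2-fold lower, against 0 in FITS and FPSE2B. Of all genes tested, 3.08% and 0.777% were at least 2-fold lower in the FPSE1 and FPSE2A mutants. The laminin gene LanA had 1113, 261, 106 and 112 CPM in the mutants, against 1377, 1149, 211 and 128 CPM in the wild types. The perlecan gene trol had 1200, 377, 181 and 193 CPM in the mutants, against 1629, 1128, 306 and 232 CPM in the wild types. The collagen IV genes Cg25C and vkg, of which vkg has uncertain bounds, had log2 fold changes of −0.83 and −0.75. Both FITS libraries were several times above both FPSE2A and FPSE2B libraries for each of these genes.

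Of 20 muscle genes, 19 had a negative log2 fold change, where 70.8% of well expressed genes did, and 4 were lower at an unadjusted p under 0.05, near the 13.8% of well expressed genes, with a median of −0.35 and medians by line of −0.04, −0.80, −0.60 and 0.04. The myosin heavy chain gene Mhc had 1147, 273, 192 and 181 CPM in the mutants, against 1231, 515, 342 and 226 CPM in the wild types. The titin-like gene bt had 1201, 285, 273 and 300.5 CPM in the mutants, against 1699, 764, 330.1 and 481 CPM in the wild types, and Msp300, which links nuclei to actin, 1222, 834, 365 and 414 CPM in the mutants, against 1465, 1440, 539.8 and 579 CPM in the wild types. The muscle actin gene Act57B had 1164, 247, 189 and 175 CPM in the mutants, against 986, 502, 342 and 152 CPM in the wild types, and was higher in the FITS and FPSE2B mutants. The 6 muscle markers summed to 4673, 1125, 889 and 938 CPM in the mutants, against 5111, 2389, 1411 and 1145 CPM in the wild types, and their part in the values of matrix genes was not tested.

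The piRNA factors had small fold changes, nearly all negative. Of 11 somatic biogenesis factors, 11 had a negative log2 fold change and 4 were lower at an unadjusted p under 0.05. Of well expressed genes 70.8% and 13.8% were. The list median was −0.34, or −0.20 without FPSE1 and −0.22 with the stricter filter, and the smallest edgeR adjusted p was 0.506. The helicase gene armi, which acts in Yb bodies, had 312, 177, 108 and 88.5 CPM in the mutants, against 350.2, 319.8, 149 and 91.5 CPM in the wild types. The acyltransferase gene mino had 228, 149, 117 and 114 CPM in the mutants, against 233, 182, 150.1 and 105 CPM in the wild types, and the chaperone gene Hsp83 6880, 3872, 3448 and 2754 CPM in the mutants, against 6502, 5625, 4193 and 3330 CPM in the wild types. Of 13 factors of nuclear silencing, 11 had a negative log2 fold change and 3 were lower at an unadjusted p under 0.05, with a median of −0.16, near that of well expressed genes. The dynein light chain gene ctp and the SUMO ligase gene Su(var)2-10 had log2 fold changes of −0.34 and −0.18.

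Of 17 germline piRNA factors, 16 had a negative log2 fold change, 10 were lower in all 4 mutants and 8 were lower at an unadjusted p under 0.05, where 70.8%, 25.4% and 13.8% of well expressed genes were. The list had a median of −0.34, or −0.22 with the stricter filter. The Tudor gene tud had 643, 402, 267 and 228 CPM in the mutants, against 756, 750.2, 414 and 317 CPM in the wild types. AGO3, an Argonaute of the ping-pong cycle, had 287, 283, 397 and 357 CPM in the mutants, against 377, 338, 242 and 458 CPM in the wild types, and was higher in the FPSE2A mutant. The helicase gene vas, whose reads overlap those of solo, had 277, 183, 148 and 131 CPM in the mutants, against 326, 252, 173 and 139 CPM in the wild types. Nxf3, an exporter of germline piRNA precursors that overlaps ssp2, had a log2 fold change of −0.41. Of 11 genes of the siRNA and miRNA machinery, 8 had a negative log2 fold change, near the 70.8% of well expressed genes, and 4 were lower at an unadjusted p under 0.05. Dcr-2 had 319, 199, 122 and 116 CPM in the mutants, against 403, 363, 167 and 153 CPM in the wild types, while gw, AGO2 and AGO1 had log2 fold changes of −0.27, −0.35 and −0.43. Well expressed genes as a whole shift the same way, with a median of −0.12, and no test of a difference between these lists and other genes was made.

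Germline genes had slightly negative medians in all 4 lines, as did well expressed genes, with single genes that varied by line. Of 21 tested germline and oocyte identity genes, 15 had a negative log2 fold change, near the 70.8% of well expressed genes, and 6 a positive one. The median was −0.22 and the medians by line were −0.14, −0.16, −0.10 and −0.25. Well expressed genes had medians by line of −0.12, −0.10, −0.17 and −0.11. In all 4 mutants 8 were lower and 0 higher, where 25.4% and 2.01% of well expressed genes were, and 4 were lower and 0 higher at an unadjusted p under 0.05. The posterior determinant gene nos had 328, 1146, 1442 and 1274 CPM in the mutants, against 332, 453, 765 and 1859 CPM in the wild types, higher in the FPSE1 and FPSE2A mutants and lower in the FPSE2B mutant. The polar granule RNA gene pgc had 252, 588, 919.5 and 1038 CPM in the mutants, against 296, 309, 566 and 1811 CPM in the wild types, with the same directions. For osk, which builds germ plasm, the levels were 736, 595, 482 and 402 CPM in the mutants, against 857, 1011, 506 and 622 CPM in the wild types, lower in every mutant. Sxl, the female sex switch gene, had 561, 459, 555 and 624 CPM in the mutants, against 667, 676, 451 and 830.5 CPM in the wild types. The FITS libraries had the lowest nos and pgc of their genotype and the FPSE2B wild type the highest. The male-specific roX2 RNA had at most 0.0253 CPM in any library.

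DNA replication and cell cycle genes had a positive median log2 ratio in FPSE1 and negative ones in FPSE2A and FPSE2B. The medians by line of the 23 genes tested were 0.002, 0.52, −0.32 and −0.35, the median log2 fold change was −0.02 and 1 gene, E2f1, was lower at an unadjusted p under 0.05. The cyclin genes CycB and CycA had 939.5, 1390, 1240 and 919 CPM and 530.3, 620.4, 611 and 427 CPM in the mutants, against 923, 887, 1175 and 1067 CPM and 572, 464, 588 and 499.6 CPM in the wild types. The phosphatase gene stg, which starts mitosis, had 254, 387, 306 and 304 CPM in the mutants, against 273, 269.8, 348 and 521 CPM in the wild types. RnrS, a ribonucleotide reductase gene, had 383, 569.9, 564 and 537 CPM in the mutants, against 397, 366, 525 and 728 CPM in the wild types. Unlike stg and the list median, CycB, CycA and RnrS were higher in the FPSE2A mutant than in its wild type. Of 17 DNA damage response genes, 11 had a negative log2 fold change and 1, tefu, was lower at an unadjusted p under 0.05. The checkpoint kinase genes lok and grp had log2 fold changes of −0.09 and 0.05, and the bounds of lok differ between libraries.

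Heat shock genes set FPSE2B apart from the other lines. The medians of 18 genes by line were 0.63, 0.57, 0.49 and −1.34, and 10 were at least 2-fold lower in the FPSE2B mutant, where 0.475% of all genes tested were. In the FITS, FPSE1 and FPSE2A mutants 8, 5 and 6 were at least 2-fold higher, where 2.44%, 3.95% and 2.89% of all genes tested were. The small heat shock gene Hsp26 had 186, 643, 808 and 1711 CPM in the mutants, against 131, 135, 397 and 2709 CPM in the wild types, and Hsp27 240, 400.2, 468 and 493 CPM in the mutants, against 180.3, 143, 530.1 and 726 CPM in the wild types. Hsp68, a stress-induced gene named after its values were seen, had 127, 22.2, 64.7 and 29.7 CPM in the mutants, against 15.1, 12.5, 10.6 and 194 CPM in the wild types. The FPSE2B wild type was the highest of all libraries for these 3 genes. The constitutive chaperone gene Hsc70-4 had 10170, 8311, 6755 and 6937 CPM in the mutants, against 9175, 11900, 7150 and 6539 CPM in the wild types, with little difference. Across the 4 lines 0 of the 18 passed the test (smallest edgeR adjusted p = 0.602). The Hsp70 genes have near-identical copies and Hsp22 overlaps Hsp67Bb, so these members of the list are uncertain.

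Stress and death genes beyond heat shock gave no called gene. Of 17 cell death and JNK genes, 12 had a negative log2 fold change and 3, which were puc, hid and Xrp1, were lower at an unadjusted p under 0.05. Both counts are near the shares of well expressed genes (70.8% and 13.8%). The JNK phosphatase gene puc had 112, 103, 52.2 and 67.9 CPM in the mutants, against 141, 140, 74.1 and 96.0 CPM in the wild types, and the proapoptotic gene hid 78.3, 66.2, 61.6 and 95.4 CPM in the mutants, against 111, 115, 65.3 and 156 CPM in the wild types, each lower in every mutant than in its own wild type. Of 15 tested JAK-STAT and Turandot genes, 9 had a negative log2 fold change, and Stat92E, the STAT factor gene, had 262, 206, 180.2 and 169.6 CPM in the mutants, against 341, 300.3, 199.5 and 230 CPM in the wild types. Of 22 CncC and antioxidant genes, 11 had a positive and 11 a negative log2 fold change. The glutathione transferase gene GstD1 had 732, 1509, 1160 and 1920 CPM in the mutants, against 618, 702, 1023 and 2618 CPM in the wild types, and the superoxide dismutase gene Sod 390.1, 814, 883 and 1271 CPM in the mutants, against 392, 369.6, 643 and 1770 CPM in the wild types, with the FPSE1 mutant above and the FPSE2B mutant below its wild type for both.

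Of 62 tested cytochrome P450 genes, 32 had a positive and 30 a negative log2 fold change, with 4 higher and 3 lower at an unadjusted p under 0.05 and 0 called by edgeR (smallest edgeR adjusted p = 0.506). Of all genes tested 2.03% were higher and 7.61% lower at that unadjusted p. DESeq2 called Cyp6d4 and Cyp311a1 as higher and Cyp4s3 as lower (adjusted p = 0.0113, 0.0195 and 0.0239). Of 13258 genes tested it called 66 higher and 34 lower. Cyp4s3, chosen after its values were seen, had 54.1, 32.9, 57.8 and 62.1 CPM in the mutants, against 96.3, 74.0, 68.0 and 118 CPM in the wild types, so all mutants lay below all wild types. Cyp4g1, which makes cuticle hydrocarbons and overlaps CG32816, had 132, 257, 263 and 688 CPM in the mutants, against 366, 596, 1010 and 349 CPM in the wild types. Cyp6a19 had 152, 339, 344 and 329.8 CPM in the mutants, against 151, 172, 262 and 461 CPM in the wild types. The fat body and hemocyte list of 18 genes had 7 positive and 11 negative log2 fold changes. Hml, a hemocyte gene, had 49.6, 15.2, 9.89 and 18.8 CPM in the mutants, against 74.2, 29.0, 36.1 and 17.0 CPM in the wild types, and the peroxidasin gene Pxn 109.7, 15.7, 12.4 and 12.9 CPM in the mutants, against 64.9, 32.6, 15.6 and 5.41 CPM in the wild types. Insulin and juvenile hormone genes were negative in 13 of 15, where 70.8% of well expressed genes were. Among them was foxo, the insulin pathway factor, with 219, 163, 162 and 192 CPM in the mutants, against 282, 256, 164 and 255 CPM in the wild types. The insulin-like gene Ilp8 had 83.8, 377, 120.3 and 386 CPM in the mutants, against 146, 681, 319 and 283 CPM in the wild types.

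Of 16 neuron and glia genes, 12 had a positive log2 fold change, with a median of 0.52, or 0.12 without FITS. At an unadjusted p under 0.05, 1 (Appl, with uncertain bounds) was higher and 1 (Syx1A) lower. Of all genes tested 2.03% were higher and 7.61% lower at that p. The neuronal RNA-binding protein gene elav had 67.1, 33.8, 29.9 and 40.4 CPM in the mutants, against 57.0, 48.5, 26.5 and 55.8 CPM in the wild types, while Syx1A, for membrane fusion, had 97.0, 81.0, 53.4 and 55.4 CPM in the mutants, against 133, 102, 73.7 and 91.6 CPM in the wild types. The 5 neuron and glia markers summed to 86.3, 38.9, 47.0 and 62.9 CPM in the mutants, against 62.0, 54.3, 42.9 and 67.5 CPM in the wild types. Of 9 tested genes of the Malpighian tubule, the kidney-like organ, 6 had a positive log2 fold change, against 6132 of 13258 genes tested. At an unadjusted p under 0.05, 2 were higher, where 2.03% of all genes tested were. The urate oxidase gene Uro was among these 2, with 6.09, 25.96, 32.5 and 5.49 CPM in the mutants, against 6.41, 8.07, 9.10 and 4.55 CPM in the wild types.

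Genes that often serve as visible markers were examined because strain backgrounds can differ in them. The eye colour gene white (w) had 3.96, 0, 9.64 and 8.20 CPM in the mutants, against 7.30, 5.45, 8.31 and 7.88 CPM in the wild types, so the FPSE1 mutant had no read of it, which allows up to 0.056 CPM (3 counts, counting error only). The bristle gene forked (f) had 9.85, 21.3, 11.8 and 13.2 CPM in the mutants, against 2.86, 9.26, 9.47 and 8.77 CPM in the wild types, and all mutants lay above all wild types (0.97, SE 0.29, edgeR adjusted p = 0.506). DESeq2 called f as higher. The xanthine dehydrogenase gene ry had 4.98, 6.23, 5.35 and 3.77 CPM in the mutants, against 4.28, 4.12, 5.30 and 3.61 CPM in the wild types, and sn, whose bounds differ between libraries, had a log2 fold change of 0.11. Whether mutants and wild types of a line share a background apart from flam was not tested.

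Taken line by line, the genes with the largest ratios differed. In FITS the largest were Osi7, Osi6 and CG43090, with 115, 101 and 102 CPM in the mutant, against 0.102, 0.190 and 0.117 CPM in the wild type. Osi6 and Osi7, of the Osiris family known from cuticle formation, were at most 1.095 CPM in every other library. CG43090 had 102, 97.0, 65.4 and 20.5 CPM in the mutants, against 0.117, 0, 36.4 and 0.202 CPM in the wild types, and ranked among the first 3 in FITS, FPSE1 and FPSE2B. The lowest in FITS were the aspartyl protease gene Bace, the neuropeptide gene Dh31 and betaTry, with 0.464, 0.679 and 1.19 CPM in the mutant, against 347, 348 and 454 CPM in the wild type. Bace lies inside the span of Dh31 on its strand, so reads of these 2 are uncertain.

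In FPSE1 the largest were CG18404, CG43090 and CG17633, with 234, 97.0 and 80.2 CPM in the mutant, against 0.140, 0 and 0.0468 CPM in the wild type. CG18404 had no read in either FITS library. The lowest in FPSE1 were the mucin-related gene Mur11Da, flam and CG31928, with log2 ratios of −4.03, −3.32 and −3.26. So flam was the second most reduced of the genes with at least 10 CPM in 1 of the FPSE1 libraries, and it was not among the first 3 in any other line. In FPSE2A the largest were Jon25Biii, CG17571 and CG10472, with 229, 163 and 106 CPM in the mutant, against 0.641, 0.534 and 1.14 CPM in the wild type. The lowest were Mal-B1, CG14661 and CG17108, with log2 ratios of −2.64, −2.43 and −2.35. In FPSE2B the largest were CG43090, Send1 and CG16826, and the lowest Jon25Biii, LManVI and CG31343, with log2 ratios of 4.16, 3.88, 3.42, −3.63, −3.49 and −3.32. The Jonah protease gene Jon25Biii was thus the highest ratio in FPSE2A and the lowest in FPSE2B.

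At least 2-fold higher were 324 genes (2.44%) in the FITS mutant, 524 (3.95%) in FPSE1, 383 (2.89%) in FPSE2A and 164 (1.24%) in FPSE2B, and at least 2-fold lower were 206 (1.55%), 409 (3.08%), 103 (0.777%) and 63 (0.475%) in that order of lines. FPSE1 and FPSE2A shared 229 of the higher genes, 43.7% of those in FPSE1 and 59.8% of those in FPSE2A. In contrast, 116 of the genes lower in FITS (56.3%) were higher in FPSE1, where they made up 22.1% of the higher genes. Of the 63 genes lower in FPSE2B, 42 (66.7%) were higher in FPSE2A, 11% of those. Across all genes tested, log2 ratios correlated between FPSE1 and FPSE2A with r = 0.48 and between the other pairs of lines with r from −0.11 to 0.054, given as a description across genes, which are not independent. On the first principal component, which held 54.1% of the variance, the FITS libraries and the FPSE1 wild type stood at 1 end and the FPSE2B libraries and the FPSE2A mutant at the other.

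**Figure D5:**
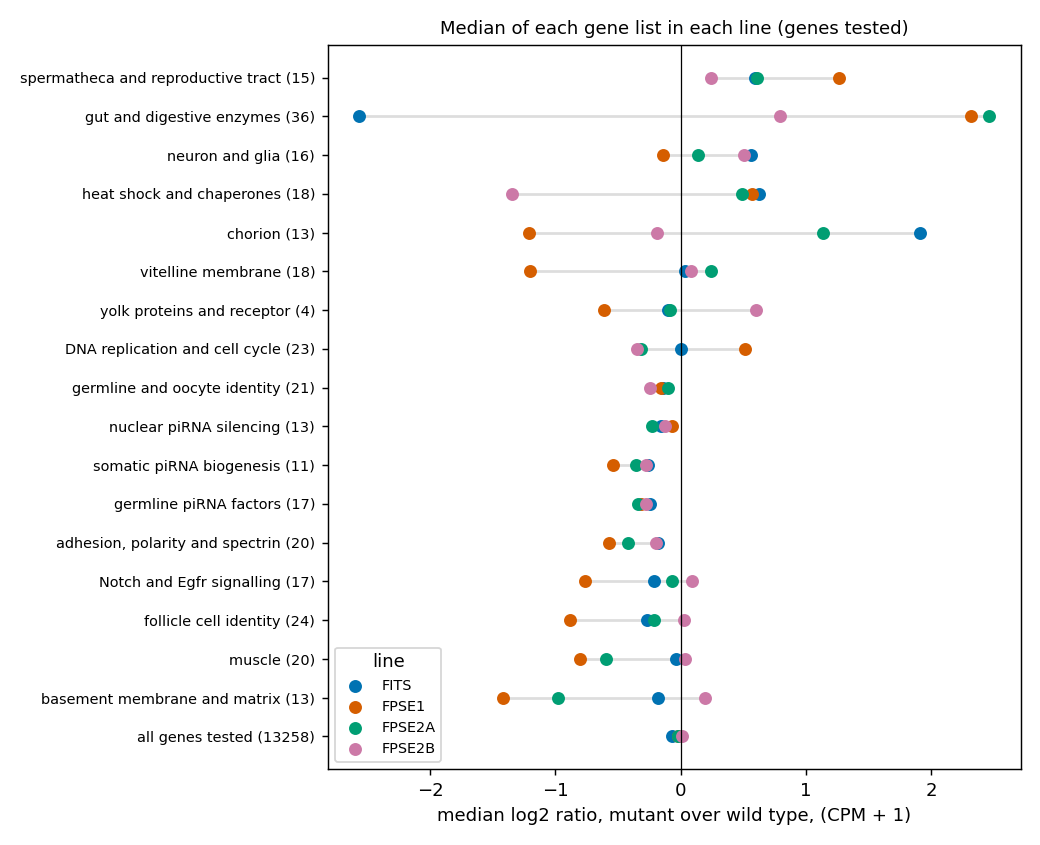
Median log2 ratio of mutant over wild-type CPM (1 CPM added to each) of 17 gene lists and of all genes tested, with 1 point per line and the number of genes tested in brackets. Medians of the spermatheca list are above 0 in all 4 lines, those of the gut list run from −2.56 in FITS to 2.46 in FPSE2A, and those of piRNA factors lie close together below 0.

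The response of these 4 lines was set against that of the lines FlamBG and FlamKG, the other 2 lines of the ovary long RNA set, each with 1 mutant and 1 wild-type library and with no library in common with the 4 lines. Total unique counts were 14786435 and 70411936 in the FlamBG and FlamKG mutants, against 9676965 and 64242858 in their wild types. In 1 fit of all 12 libraries, 4519 of 13531 genes (33.4%) differed between the 2 sets of lines at an edgeR adjusted p under 0.05. At an unadjusted p under 0.05 there were 6038 (44.6%). In 2505 (18.5%) the log2 fold change of the FITS and FPSE lines was above that of the Flam lines, and in 2014 (14.9%) it was below. CPM in these comparisons come from that fit and differ slightly from those above.

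Of the lists, chorion genes had the largest median difference. Of 13 chorion genes 12 differed, all above, with a median log2 fold change of 0.32 in the FITS and FPSE lines and −10.29 in the Flam lines. Cp38 had 1372, 1722, 5403 and 3025 CPM in the FITS and FPSE mutants, against 99.1, 2616, 2517 and 2806 CPM in their wild types, and 0.371 and 0.158 CPM in the FlamBG and FlamKG mutants, against 1039 and 9060 CPM in theirs (difference 14.98, SE 1.96, edgeR adjusted p = 0.00252). Cp36, Cp16 and Cp19 had differences of 14.13, 13.65 and 13.65, as did CG14187 with 14.82, which had no read in either Flam mutant, so that the fitted size depends on the prior count. Of 18 vitelline membrane genes 17 differed above and 1 below, of 23 replication and cell cycle genes 22 above, and of 13 nuclear piRNA factors 11 above.

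Below stood muscle with 18 of 20 genes, fat body and hemocytes with 12 of 18 and cytochrome P450 with 36 of 62. Each had 0 above except P450 with 2. The gut list had 6 of 37 below, near the 14.9% of all genes tested, and 0 above. CG14645 had 0.0326, 0.0994, 0.144 and 0.117 CPM in the FITS and FPSE mutants, against 0.0531, 0, 0.199 and 0.0936 CPM in their wild types, and 584 and 208 CPM in the FlamBG and FlamKG mutants, against 0 and 0 CPM in theirs. CG33306, with 49.1 and 296 CPM in the FlamBG and FlamKG mutants, had no read in their wild types, and this also held for CG31267, PGRP-SC1a and CG31266. None of these 4 passed 6 CPM in any of the 8 libraries of the FITS and FPSE lines. Differences of the 5 genes ran from −16.39 to −14.18 on the log2 scale and depend on the prior count.

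At the locus itself the difference in flam between the sets was not called with all lines in the fit. The median difference over all genes tested was 0.15. In the 12-library fit flam had a log2 fold change of −1.03 in the FITS and FPSE lines and −2.55 in the Flam lines, a difference of 1.52 (SE 0.90, edgeR adjusted p = 0.231), or 2.135 without FPSE1 (adjusted p = 0.0185). The Flam mutants had 47.7 and 7.05 CPM, against 198 and 58.3 CPM in their wild types, so the FlamKG mutant alone was lower than the FPSE1 mutant with 13.02 CPM. For tj the log2 fold changes were −0.59 and −1.84, a difference of 1.25 that passed the test narrowly (edgeR adjusted p = 0.0473). For piwi they were −0.40 and −0.76 (edgeR adjusted p of the difference = 0.362), and for DIP1 −0.28 and 0.05 (edgeR adjusted p = 0.405).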

How the data were processed

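Per the labels, total RNA of ovaries was extracted with the NEB Total RNA Miniprep kit and made into ZymoSeq RiboFree libraries, which lack most ribosomal RNA. The submitters' processing notes name DESeq2, FastQC, Bowtie2 and MACS2, with no version or role, and aligner settings and annotation release are not given in the sources used here. For each gene the deposited tables hold whole-number counts of unique reads and of all reads, sense and antisense apart, per the file headers. Their 16369 genes lie on Release 6 positions as far as could be checked, since 91.4% of the 12346 genes matched by symbol had the same start and end there. Bounds differed between libraries for 495 genes, called uncertain where named. The deposited TJ peaks of OSS cells are positions only.

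Unique sense counts over the whole locus were scaled by TMM, passed through filterByExpr and fitted in edgeR 4.0.16 (R 4.3.3) with line and genotype as terms, using its quasi-likelihood test. Adjustment followed Benjamini-Hochberg, a gene passed at an adjusted p under 0.05, and each SE was obtained as the absolute log2 fold change over root F. Libraries of a line were taken as pairs from the line names in the labels, and deviations from the genotype means correlated within lines with r from 0.431 to 0.692, although the FPSE2A mutant correlated better with the wild type of another line. Ratios within a line are log2((mutant CPM + 1) / (wild-type CPM + 1)), with no test. Reads with several positions are all-position minus unique counts, divided by the scaled unique total as for CPM. DESeq2 1.42.0, other scaling and filters, and leaving out lines were alternatives. The procedure was tested on simulated counts. Intervals and floors cover counting error only.

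The members and gene lists were chosen with earlier results of these data known. Genes named are flam, DIP1, tj and piwi, the 10 with the smallest p in each direction with the same sign in all 4 lines, up to 4 members of each list with the highest mean CPM, the 3 largest ratios in each direction per line, the 5 largest differences from the Flam lines in each direction and the tested genes within 200000 bp of flam. Others are said to be chosen after their values were seen, as Cyp6d4, Cyp311a1, Def, E2f1, tefu, Xrp1, Appl, CG42780 and the genes called without FITS were. Reads of CG42780, Eip75B, Fas3, Ilp8, Pxn, Syx1A, alpha-Spec, ftz-f1 and sd are uncertain too, because another gene overlaps each on its strand.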

Additional observations from a re-analysis of the deposited data

Results flagged for a closer look

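Single libraries that stood apart from the other 3 of their genotype, by the gap to the nearest divided by the range, were looked for in 48 groups of 4, of which chance alone would pick about 1 in 20. The FITS mutant stood apart for DIP1, with 94.6 CPM against 46.2 to 53.7 CPM in the other mutants, and for tj, with 334 CPM against 89.7 to 118 CPM. The FPSE1 mutant stood apart for CG1503, with 28.6 CPM against 3.21 to 6.07 CPM in the other mutants. For yin both FPSE2B libraries did, with 192 CPM in the mutant against 325 to 337 CPM in the other mutants, and 135 CPM in the wild type against 206 to 211 CPM in the other wild types. The FPSE2A wild type stood apart for Send1, with 8.81 CPM against 0.0468 to 0.152 CPM in the other wild types.

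The mutant effect differed between the FITS and FPSE lines and the Flam lines, by the edgeR contrast of both effects, for 10 genes named by size and for tj. The 10 were taken from the 4519 genes past the threshold, so their passing was fixed by the choice. CG14645, at most 0.199 CPM outside the Flam mutants, passed the filter on low counts mainly through those mutants. The log2 differences were −16.39 for CG14645, −14.90 for CG33306, −14.87 for CG31267, −14.28 for PGRP-SC1a and −14.18 for CG31266. They were 13.65 for Cp16, 13.65 for Cp19, 14.13 for Cp36, 14.82 for CG14187, 14.98 for Cp38 and 1.25 for tj. Each of the 10 genes chosen by size has Flam libraries of 1 genotype at or near 0 CPM, so sizes depend on the prior count.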

How the results depend on the processing

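The count of 0 genes past the threshold held with DESeq2 size factors in edgeR, without a filter, with a stricter filter, in the 12-library fit, with reads of several positions and without FPSE1, FPSE2A or FPSE2B. DESeq2 called 100 genes, 66 higher and 34 lower, among them all 20 genes ranked by p, which had been picked on the same counts. Leaving out 1 line at a time gave 0 to 7 called genes, and 0 to 7 higher ones, the 7 without FITS. With FPSE2A and FPSE2B alone, an alternative added after the data were seen, 33 genes were called, 32 higher and 1 lower. FITS and FPSE1 alone, and leaving out genes of the gut and spermatheca lists, both added later as well, gave 0. Counts at an unadjusted p under 0.05 ran from 115 to 1393, against 1278. The cause of these differences was not tested.

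Without the line as a block, 0 genes were called and 115 had an unadjusted p under 0.05. The pairing by line changed no call under edgeR.

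For flam the log2 fold change ran from −1.46 to −0.36 over fits that leave out 1 line, being −0.36 without FPSE1, and with reads of several positions it reversed to 0.73 (edgeR adjusted p = 0.840). The difference of flam from the Flam lines was 1.03 to 2.135 without 1 line, and passed the threshold without FPSE1. The number of genes that differ from the Flam lines ran from 3032 to 5388. Of the values for single genes and list medians under the alternatives, 707 kept their side of the threshold or moved little, 78 moved, and 20 passed the threshold, all 20 in DESeq2. The spermatheca list median of 2.48 stayed positive, at 5.55 with the stricter filter, which keeps 5 of its 15 genes, 0.725 in FPSE2A and FPSE2B alone and 4.51 in FITS and FPSE1 alone. Depth limits what can be said of genes with few reads, such as Ir20a.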

Other observations

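Genes of the fourth chromosome, a small and largely heterochromatic chromosome, had a median log2 fold change of −0.21 over 92 genes tested, of which 15 (16.3%) had an unadjusted p under 0.05, against 9.64% of all genes. Their median log2 ratios were −0.20 in FITS, −0.31 in FPSE1, 0.18 in FPSE2A and −0.29 in FPSE2B. Of 12 tested genes of X dosage and sex determination, 11 had a negative log2 fold change and 2 were lower at an unadjusted p under 0.05. Of genes with a mean of at least 10 CPM, 70.8% and 13.8% were. The dosage compensation gene msl-1 had 172, 138, 90.3 and 64.5 CPM in the mutants, against 188, 156, 136 and 102 CPM in the wild types, lower in each mutant than in its own wild type.

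Of 14 tested testis genes, 9 had a positive log2 fold change and 0 were at an unadjusted p under 0.05. The thioredoxin gene dhd, known to be active in the female germline and uncertain in its bounds, had 1800, 3905, 6994 and 8131 CPM in the mutants, against 2008, 1754, 5289 and 11210 CPM in the wild types. It was higher in the FPSE1 and FPSE2A mutants and lower in the FITS and FPSE2B mutants.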
